A study of Mus musculus with 24 samples.

Results

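Among 21 poly(A) RNA-Seq libraries of mouse hippocampus, 5 held Transthyretin (Ttr) at 200 CPM or more and 16 held it under that level, where CPM is the read count of a gene scaled to the total of its library. The Ttr-rich and Ttr-poor classes were chosen by the measured Ttr level alone, with no other gene used. The 21 libraries are those that the study analysed of the 24 it made, after leaving out WTSH samples 4 and 7 and KDSH sample 6. Each library came from 1 Aged male mouse on a C57-Bl/6J background, and the mice were 21-23 months old when hippocampal RNA was prepared. Wild-type (WT) mice and MSK1 KD mice, which carry a single amino acid exchange that inactivates the kinase MSK1 in every cell, were bred as separate homozygous and WT lines. Mice stayed in standard housing or were moved at 18 months to enriched housing. The 4 groups were therefore standard-housed WT (WTSH), enriched WT (WTEE), standard-housed MSK1 KD (KDSH) and enriched MSK1 KD (KDEE) mice. The labels and methods give no dissection, extraction or sequencing batch for a library beyond 6 libraries sharing a lane, and the lanes are not named.

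The choroid plexus is a sheet of epithelium, fibroblasts and leaky capillaries that hangs into the ventricles and secretes the cerebrospinal fluid. It lies against the hippocampus along the fimbria. Its epithelial cells make Ttr, the carrier of thyroid hormone and of retinol-binding protein, in great amounts, together with transporters, channels and secreted proteins that neurons and glia of the hippocampus express little or not at all. In bulk samples, more cells of a type and more RNA per cell cannot be told apart.

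The Ttr-rich libraries were spread over 3 of the 4 groups. Ttr stood at 4198 CPM in WTSH sample 19, 5037 in WTEE sample 10, 5476 in WTEE sample 13, 8911 in KDEE sample 12 and 2479 in KDEE sample 14. In the 16 Ttr-poor libraries it ranged from 4.78 CPM in KDSH sample 3 to 86.6 CPM in KDEE sample 9, with a median of 38.1 CPM. The lowest Ttr-rich library was thus 28.6-fold above the highest Ttr-poor one, and thresholds of 100, 500 or 1000 CPM placed every library in the same class. By count, Ttr ranked between 2 and 18 among all genes of the Ttr-rich libraries and between 2694 and 11874 in the Ttr-poor ones. Since these values chose the classes, Ttr was given no test. The Ttr-rich class held 1 of 4 WTSH, 2 of 6 WTEE, 0 of 5 KDSH and 2 of 6 KDEE libraries. With the group as a block, the KDSH libraries therefore added to the estimate of spread but not to the difference between the classes. The 3 libraries left out by the study held Ttr at 7.08 to 39.9 CPM, within the range of the Ttr-poor class.

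**Figure D1:**
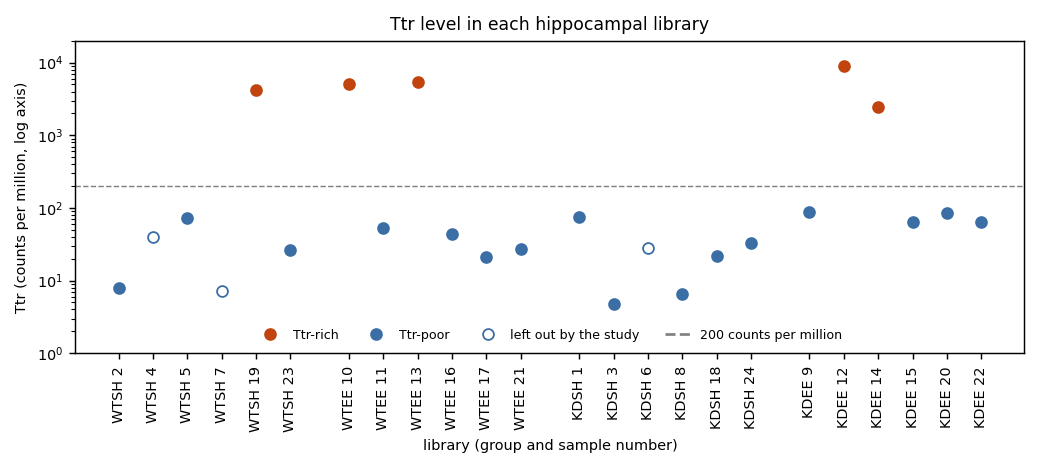
Ttr level (CPM, log axis) in each of the 24 libraries, by group and sample number, with Ttr-rich libraries in orange, Ttr-poor libraries in blue, libraries left out by the study as open circles and the threshold of 200 CPM as a dashed line. No library lies between 86.6 and 2479 CPM, and no KDSH library lies above the threshold.

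Depth did not separate the classes, with 41466225 to 71907130 counts on genes in the Ttr-rich libraries and 27410239 to 56059094 in the Ttr-poor ones. Hippocampal identity was present in both. The summed level of 12 markers of hippocampal neurons was 851 to 953 CPM in the Ttr-rich and 894 to 1134 CPM in the Ttr-poor libraries. WTEE sample 10 stood apart from the other kept libraries. The median log2 level of long genes minus that of short genes, relative to the other libraries, was -0.79 there and lay between -0.23 and 0.15 in the other 20. Its summed level of structural RNAs was 13776 CPM, against 1205 to 3528 CPM in the other Ttr-rich libraries and 330 to 24863 CPM in the Ttr-poor ones. Results that rest on it are given with and without it.

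In the comparison of the classes, 999 of 20554 tested genes were called higher in the Ttr-rich libraries, which is 4.86% of all genes tested, and 77 were called lower, or 0.375%. A gene was called at an adjusted p value under 0.05 and a log2 fold change beyond 0.38 in the quasi-likelihood test of edgeR, with Ttr itself left out of the adjustment. These calls describe genes whose level varied together with Ttr across the mice. They are not independent evidence that the classes differ, since the classes were formed from the same libraries. The median log2 fold change was -0.0017 over all genes tested and 0.78 over those called higher. Of the 999, 371 had a log2 fold change over 1, 149 over 2 and 78 over 3, and 911 were protein-coding. In 502 genes, or 2.44% of those tested, every Ttr-rich library lay above every Ttr-poor one. Of the 999 genes called higher, 916 passed the filter on low counts in the Ttr-poor libraries alone. The others passed it only with the Ttr-rich libraries included, so that their calls add no support.

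A list of 60 genes of the choroid plexus epithelium other than Ttr was tested in full. Of these, 52 were called higher and 0 were called lower. In 46 of the 60, called or not, every Ttr-rich library lay above every Ttr-poor one, a pattern found in 2.44% of all genes tested. The median log2 fold change of the 60 was 2.46. Their summed level was 5454 to 10484 CPM in the Ttr-rich libraries and 3408 to 3825 CPM in the Ttr-poor ones, so the classes did not overlap. The count was again 52 of 60 without WTEE sample 10, with a median of 2.44. Higher levels were thus found over the list as a whole and not in Ttr alone. The list was chosen with earlier results of these data known, so this is a description. Cdh3 and Slco1a5 did not pass the filter on low counts in the Ttr-poor libraries alone, so that they were tested only through their Ttr-rich levels. Of the other 58 members, 50 were called higher, with a median of 2.24. The 8 members not called are named with their roles below.

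**Figure D2:**
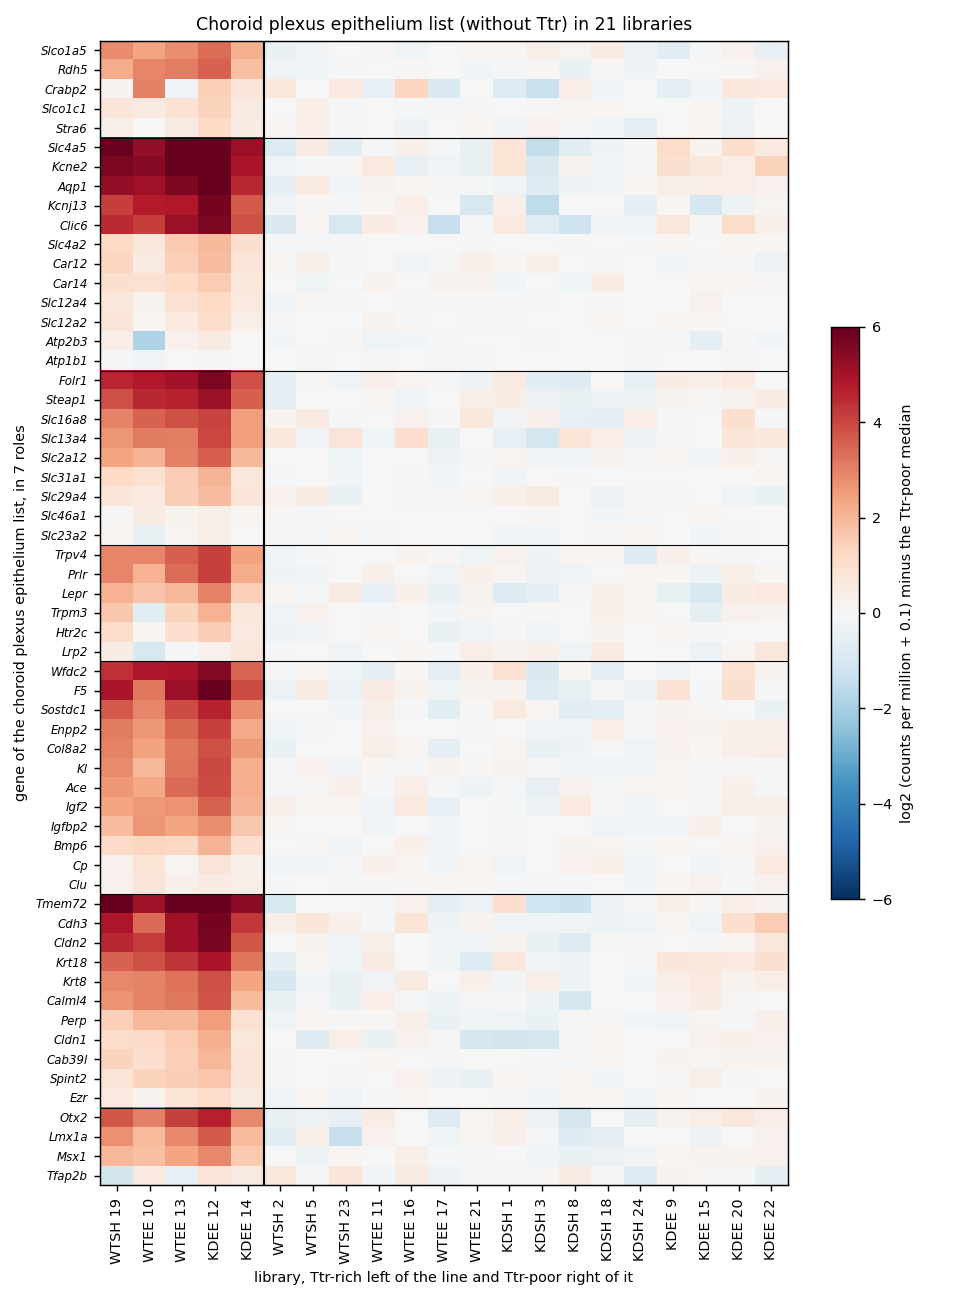
Level of genes of the choroid plexus epithelium list (rows, in 7 roles) in the 21 libraries (columns), as log2 (CPM + 0.1) minus the median of the Ttr-poor libraries, from blue (lower) to red (higher), with the colours ending at 6 in either direction. The 5 Ttr-rich libraries on the left are red in most rows, KDEE sample 12 most deeply, while the 16 Ttr-poor libraries stay near 0.

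Channels and transporters for ions and water held several of the largest differences, and 10 of the 12 members were called higher. Slc4a5, a sodium bicarbonate cotransporter of the apical membrane, stood at 31.2, 19.8, 46.6, 75.4 and 18.0 CPM in WTSH sample 19, WTEE samples 10 and 13 and KDEE samples 12 and 14. In the Ttr-poor libraries it had a lowest level of 0.0956, a median of 0.421 and a highest level of 1.0 CPM. Its log2 fold change was 6.17 ± 0.30 (SE). Every Ttr-rich library was above every Ttr-poor one by more than 1 order of magnitude. Aqp1, the water channel of the apical membrane, stood at 27.0, 24, 33.5, 54.4 and 15.8 CPM in the same order, against 0.311 to 0.911 CPM in the Ttr-poor libraries. Its log2 fold change was 5.49 ± 0.20.

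Kcne2, a potassium channel subunit, had a log2 fold change of 5.95 ± 0.27, with 10.7 to 39.0 CPM in the Ttr-rich and 0.0956 to 0.839 CPM in the Ttr-poor libraries. Kcnj13, an inward rectifier of the apical membrane, had one of 5.45 ± 0.33, although 49.1% of its exon length is shared with Gigyf2 and reads were counted without regard to strand. Clic6, a chloride intracellular channel protein, rose from a median of 3.04 to one of 69.2 CPM (log2 fold change 4.72 ± 0.29). The more widely expressed transporters moved less. Slc4a2, an anion exchanger, had a log2 fold change of 1.32 ± 0.12, the carbonic anhydrases Car12 and Car14 had 1.26 ± 0.15 and 1.02 ± 0.11, and the cation chloride cotransporters Slc12a4 and Slc12a2 had 0.73 ± 0.09 and 0.59 ± 0.10. Atp1b1, a subunit of the sodium pump that neurons express strongly, was not called (-0.07 ± 0.05), nor was the calcium pump Atp2b3 (0.18 ± 0.20). Atp2b3 stood at 57.3 CPM in WTEE sample 10 and at 205 to 297 CPM in the other Ttr-rich libraries.

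The bases before the transcription start are shown for genes that had the 10 largest log2 fold changes among those called and non-overlapping, where this window holds no annotated exon. All 10 matched RefSeq promoter entries (build GRCm38.p6), and 4 genes qualified. Each window is the 250 bases upstream of the RefSeq start, written 5′ to 3′ on the strand of the gene. Capitals mark the letters TAATCC (reverse complement GGATTA), which OTX2 and related homeodomain proteins bind, and TAAACA (reverse complement TGTTTA), a forkhead-type motif. Both strands were searched and matches of the motifs did not overlap.
Aqp1 (chr6:55336049-55336298, plus strand): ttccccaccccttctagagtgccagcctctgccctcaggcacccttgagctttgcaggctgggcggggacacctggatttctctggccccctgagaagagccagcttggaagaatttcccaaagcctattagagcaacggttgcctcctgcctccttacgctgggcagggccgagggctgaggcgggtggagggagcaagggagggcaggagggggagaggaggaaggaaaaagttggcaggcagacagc
Kcne2 (chr16:92292139-92292388, plus strand, the first of its RefSeq starts): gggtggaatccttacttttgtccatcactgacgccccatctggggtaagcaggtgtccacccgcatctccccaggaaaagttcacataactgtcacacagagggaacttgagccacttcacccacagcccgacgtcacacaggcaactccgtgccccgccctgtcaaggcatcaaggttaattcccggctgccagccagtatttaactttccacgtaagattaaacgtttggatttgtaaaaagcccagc
Kcnj13 (chr1:87394730-87394979, minus strand): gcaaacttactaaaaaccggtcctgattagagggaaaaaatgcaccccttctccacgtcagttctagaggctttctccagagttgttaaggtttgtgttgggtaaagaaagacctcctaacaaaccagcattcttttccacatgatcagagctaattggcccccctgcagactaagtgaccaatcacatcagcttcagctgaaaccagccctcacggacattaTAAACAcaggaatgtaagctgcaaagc
Pon1 (chr6:5193947-5194196, minus strand): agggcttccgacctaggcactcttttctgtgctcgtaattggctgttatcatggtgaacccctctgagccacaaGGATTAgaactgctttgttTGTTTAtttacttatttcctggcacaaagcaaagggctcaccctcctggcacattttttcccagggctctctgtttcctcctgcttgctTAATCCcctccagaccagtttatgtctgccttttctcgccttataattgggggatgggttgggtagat

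For the shares, a gene counted by any of its RefSeq windows, whether or not the window held an annotated exon. Among choroid plexus genes called higher, 44 of 52 had a window, of which 3 (6.82%) held the OTX2-type and 6 (13.6%) the forkhead-type letters. Over all tested genes with a window (13203 of 20554), 6.44% held the first and 9.86% the second. Over all genes called higher that had a window (718 of 999), the shares were 8.5% and 10%. The window of Pon1 held both motifs and that of Kcnj13 the forkhead-type one, while those of Aqp1 and Kcne2 held neither. A match describes the letters of the window and is not a binding site.

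Uptake of nutrients and metals was represented by 9 genes, of which 7 were called higher. Folr1, the folate receptor through which folate enters the cerebrospinal fluid, stood at 33.8 CPM in WTSH sample 19, 40.4 and 47.7 in WTEE samples 10 and 13, and 71.1 and 20.6 in KDEE samples 12 and 14. Its Ttr-poor libraries ranged from 0.73 to 2.02 CPM with a median of 1.33 CPM. The log2 fold change was 4.87 ± 0.21. The order of Folr1 over the Ttr-rich libraries was that of Ttr itself, lowest in KDEE sample 14 and highest in KDEE sample 12. Steap1, a member of the STEAP metalloreductase family, had a log2 fold change of 4.82 ± 0.21. Slc16a8, a lactate carrier of choroid plexus and retinal pigment epithelium, had 3.35 ± 0.22. Slc13a4, a sulphate carrier, had 2.86 ± 0.28, and Slc2a12, a glucose carrier, 2.76 ± 0.18. The copper carrier Slc31a1 had 1.35 ± 0.13. Slc23a2, the vitamin C carrier that neurons also use, was not called (0.10 ± 0.08). Slc46a1, the proton-coupled folate carrier, passed the adjusted p threshold but not the fold threshold (0.25 ± 0.06, edgeR adjusted p = 0.0125).

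Of 12 secreted and shed proteins, 11 were called higher. Enpp2, the secreted lysophospholipase D autotaxin, stood at 1743, 1212, 2134, 3432 and 955 CPM in WTSH sample 19, WTEE samples 10 and 13 and KDEE samples 12 and 14, against 166 to 259 CPM in the Ttr-poor libraries. Its log2 fold change was 3.15 ± 0.17, and the classes did not overlap. Per kilobase of exon, Enpp2 had a median of 302 CPM in the Ttr-rich libraries and Ttr one of 4247 CPM, while no other called member of the list exceeded 63.3 CPM (Igfbp2). Kl, the anti-ageing protein and FGF23 co-receptor Klotho, stood at 129, 69.1, 169, 281 and 82.6 CPM in the same order, against 15 to 21.2 CPM. Wfdc2 (5.29 ± 0.30), the coagulation factor F5 (4.71 ± 0.30), the BMP and Wnt antagonist Sostdc1 (3.81 ± 0.23) and the angiotensin-converting enzyme Ace (2.97 ± 0.20) followed by log2 fold change. Igf2, a growth factor, had 2.62 ± 0.19, with 64.5% of its exon length shared with Gm49394 and Igf2os. Cp, the copper protein ceruloplasmin, was near the thresholds (0.41 ± 0.12, edgeR adjusted p = 0.0447), kept its call in 8 of 21 such single-library omissions, and without WTEE sample 10 was not called (log2 fold change 0.31, edgeR adjusted p = 0.162). Clu, a chaperone that astrocytes express strongly, stood at 1216 to 1642 CPM in the Ttr-rich and 882 to 1199 CPM in the Ttr-poor libraries and missed the fold threshold (0.35 ± 0.07).

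All 11 genes of junctions, cytoskeleton and membrane were called higher. Tmem72, a membrane protein of unknown function, had the largest log2 fold change of the list at 6.77 ± 0.32. It stood at 50.8, 18.7, 57.8, 98.9 and 23.5 CPM in WTSH sample 19, WTEE samples 10 and 13 and KDEE samples 12 and 14, against a lowest level of 0.129, a median of 0.454 and a highest of 1.02 CPM in the Ttr-poor libraries. The P-cadherin Cdh3 was counted 73 to 343 times in each Ttr-rich library and 1 to 9 times in each Ttr-poor one. Cldn2, the claudin of leaky epithelia (4.84 ± 0.23), and the keratins of simple epithelia Krt18 (4.0 ± 0.22) and Krt8 (3.17 ± 0.19) followed. Ezr, which anchors microvilli and which astrocytes also express, had the smallest difference of this role (0.66 ± 0.10).

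Of the receptors and sensors, 5 of 6 were called higher. Trpv4, an osmosensitive calcium channel, had a log2 fold change of 3.34 ± 0.19, the prolactin receptor Prlr 3.09 ± 0.21, and the leptin receptor Lepr 2.18 ± 0.24. Htr2c, the serotonin receptor that neurons share with the choroid plexus, had 0.99 ± 0.13. Trpm3 stood at 32.9 CPM in WTEE sample 10 and at 79.7 to 220 CPM in the other Ttr-rich libraries, against 33.9 to 62.6 CPM in the Ttr-poor ones, so that the classes overlapped through that library. Its log2 fold change was 1.25 ± 0.23 with and 1.52 without WTEE sample 10. Lrp2, an endocytic receptor, was not called (0.07 ± 0.19).

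Handling of thyroid hormone and retinol, the role to which Ttr belongs, held 6 further genes, of which 5 were called higher. Slco1a5, an organic anion carrier, had a log2 fold change of 3.58 ± 0.23, the retinol dehydrogenase Rdh5 2.88 ± 0.17, the thyroxine carrier Slco1c1, which endothelium also expresses, 0.84 ± 0.11, and the retinol-binding protein receptor Stra6 0.54 ± 0.15. When single libraries were dropped in turn, Stra6 kept its call in 18 of 21 fits, and without KDEE sample 12 its log2 fold change was 0.34. Crabp2, a retinoic acid-binding protein, was not called (1.25 ± 0.46) and stood at 6.28 CPM in WTEE sample 10 against 0.57 to 2.03 CPM in the other Ttr-rich libraries.

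Of 4 transcription factors, Otx2, which specifies and maintains the choroid plexus epithelium, had a log2 fold change of 3.84 ± 0.24, with 9.12 to 31.2 CPM in the Ttr-rich and 0.516 to 1.91 CPM in the Ttr-poor libraries. Lmx1a, a roof plate factor, had 3.19 ± 0.29 and Msx1 2.11 ± 0.14. Tfap2b was not called (0.07 ± 0.45) and lay under 0.34 CPM in every kept library.

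The proportion of each gene to Ttr was also compared between the Ttr-rich libraries. For each Ttr-rich library, the median of the Ttr-poor libraries of its group was subtracted from a gene and from Ttr, and the remainder was expressed per 1000 Ttr counts. Folr1 gave 7.84, 7.81, 8.51, 7.85 and 7.85 per 1000 Ttr counts in WTSH sample 19, WTEE samples 10 and 13 and KDEE samples 12 and 14, a coefficient of variation (CV) of 3.82% over mice of 3 groups. This was the lowest CV of the 52 called members. Over the 52 the median CV was 24.7%, with a highest value of 81.4%, and it was under 25% in 26 of them. The proportions departed most in WTEE sample 10. Tmem72 gave 3.66 per 1000 Ttr counts there and 9.52 to 12.1 in the other Ttr-rich libraries. F5 gave 3.06 there and 11.2 to 14.4 in the others. Without WTEE sample 10 the median CV over the 52 was 12.5%, and 45 had a CV under 25%. Among all genes called higher with a Ttr-rich median of at least 1 CPM (832 genes), the median CV with all 5 libraries was 49.1%. The lowest was again that of Folr1. These proportions come from the libraries that formed the class and are a description.

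Ttr and the 999 genes called higher together exceeded the Ttr-poor median of the group by 0.676% of all counts in KDEE sample 14, 1.13% in WTSH sample 19, 1.38% in WTEE sample 13, 1.40% in WTEE sample 10 and 2.30% in KDEE sample 12. Ttr made up between 35.6% and 39.3% of that excess. KDEE sample 12 was the highest Ttr-rich library for 50 of the 52 called choroid plexus genes, and the lowest was KDEE sample 14 for 33 and WTEE sample 10 for 17.

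**Figure D3:**
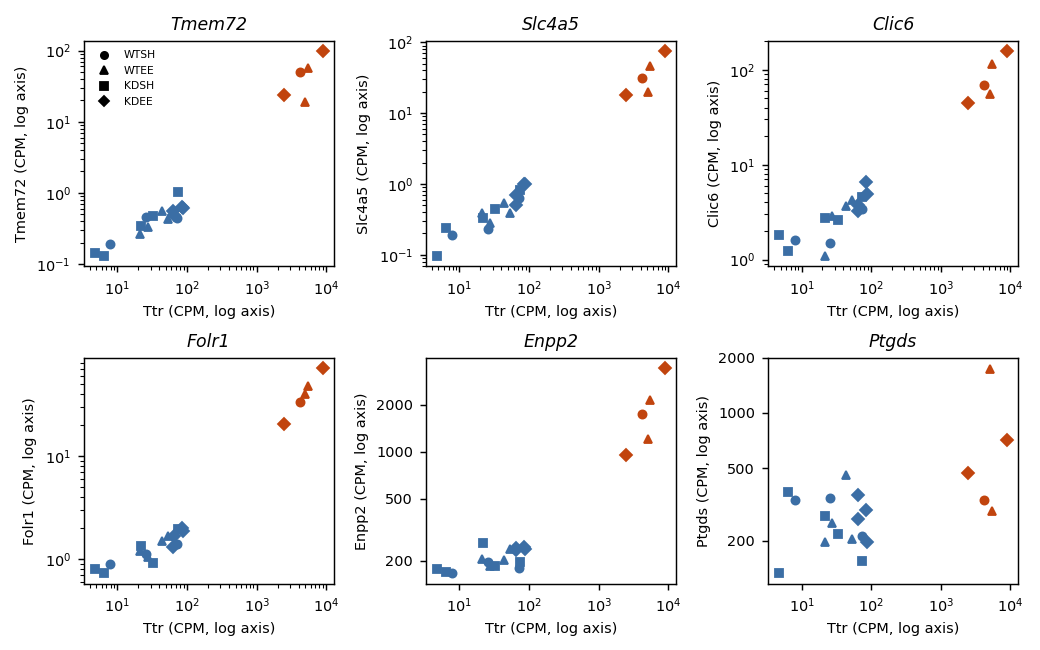
Level of 6 genes (CPM, log axis) against that of Ttr (CPM, log axis) in 21 libraries, with Ttr-rich libraries in orange and Ttr-poor ones in blue, and symbols giving the group. Folr1 follows the order of Ttr over the 5 Ttr-rich libraries, while Tmem72 has its lowest Ttr-rich level, 18.7 CPM, in WTEE sample 10 and Slc4a5 and Clic6 lie lower there than in WTSH sample 19. Enpp2 stays between 166 and 259 CPM in the Ttr-poor libraries, and Ptgds is highest in WTEE sample 10 at 1749 CPM.

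Genes outside the lists were also found with the largest differences. Mfrp, a frizzled-related membrane protein known from the retinal pigment epithelium, had a log2 fold change of 5.69 ± 0.31, with 14.2 to 85.9 CPM in the Ttr-rich and 0.406 to 1.37 CPM in the Ttr-poor libraries. Since 37.9% of its exon length is shared with C1qtnf5 and other gene models, its counts are uncertain. 1500015O10Rik, the gene of augurin, a secreted peptide precursor, stood at 43.6, 45, 49.1, 80.5 and 25.1 CPM in WTSH sample 19, WTEE samples 10 and 13 and KDEE samples 12 and 14, against 1.18 to 3.61 CPM (log2 fold change 4.39 ± 0.20). Its CV in proportion to Ttr was 7.10%, and it had no outlying library. Prr32 (4.93 ± 0.36) and Wdr86 (4.73 ± 0.24) were similar in size, and the collagen Col8a1 had 4.30 ± 0.26, beside Col8a2 (3.01 ± 0.16) of the list.

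Enzymes and carriers of retinoids, lipids and small molecules formed another set of names. The retinoid flippase Abca4 had a log2 fold change of 3.57 ± 0.21 and the phospholipase Pla2g5 one of 3.26 ± 0.21. The sulfotransferase Sult1c2 was counted 58 to 344 times in each Ttr-rich library and at most 9 times in a Ttr-poor one, and its neighbour Sult1c1 had a log2 fold change of 5.41 ± 0.57. Pon1, a serum paraoxonase, was counted 14 to 83 times in each Ttr-rich library and at most 3 times in each of the Ttr-poor ones. Pon1 (chromosome 6, 5168090 to 5193946), Gm44250 (5216258 to 5220486) and Pon3 (5220852 to 5256286) lie next to each other on the minus strand of GRCm38. Gm44250 had a log2 fold change of 2.57 ± 0.17 and Pon3 one of 2.05 ± 0.19. Pon3 was chosen after its value was seen, for its place beside Pon1. Defb11, a beta-defensin, was counted 35 to 112 times in each Ttr-rich library and at most 3 times in each Ttr-poor one. Sult1c2, Sult1c1, Pon1 and Defb11 did not pass the filter on low counts in the Ttr-poor libraries alone. They were therefore tested only through their Ttr-rich levels.

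Secreted and matrix proteins made up further names of this rule, namely Pcolce, an enhancer of procollagen processing (2.79 ± 0.17), Lbp, which binds lipopolysaccharide (2.70 ± 0.18), Wfikkn2, an inhibitor of growth differentiation factors (2.59 ± 0.22), and Sulf1, a sulphatase of heparan sulphate (2.51 ± 0.17). Cdkn1c, a cell cycle inhibitor, had 2.56 ± 0.17, with 30.7% of its exon length shared with Gm44732. Epn3, an epsin of epithelia, had 2.62 ± 0.15, and Drc7, a part of the dynein regulatory complex of motile cilia, 2.92 ± 0.17. In each of these genes every Ttr-rich library was above every Ttr-poor one.

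Ependyma, the ciliated lining of the ventricles, was covered by 14 tested genes, of which 11 were called higher. The median log2 fold change was 0.83, against 2.46 for the choroid plexus list. Foxj1, the master regulator of motile cilia, stood at 30.7, 24.9, 31.2, 39.0 and 28.1 CPM in WTSH sample 19, WTEE samples 10 and 13 and KDEE samples 12 and 14, and at 10.6 to 19.9 CPM in the Ttr-poor libraries. Its log2 fold change was 0.91 ± 0.10. Pifo (1.81 ± 0.16), Cfap126 (1.48 ± 0.15), Tekt1 (1.39 ± 0.12) and Rsph1 (1.21 ± 0.12), parts of the cilium, had non-overlapping classes as well. Ccdc153, a defining marker, was not called (0.46 ± 0.14, edgeR adjusted p = 0.0503), and Hydin and Spag17 were not called. In the fit without WTEE sample 10, 10 of 14 were called. Choroid plexus epithelium carries cilia too, so some genes of this list are shared between the cell types.

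Fibroblasts and meninges were covered by 15 genes, of which 11 were called higher with a median log2 fold change of 1.01. This count rested in part on WTEE sample 10, without which 6 of 15 were called with a median of 0.56. The summed level of the list was 2077 CPM in WTEE sample 10, 419 to 953 CPM in the other Ttr-rich libraries and 241 to 609 CPM in the Ttr-poor ones. Ptgds encodes the prostaglandin D synthase also called beta-trace protein. Ptgds stood at 1749 CPM in WTEE sample 10, 290 to 713 CPM in the other Ttr-rich libraries and 133 to 457 CPM in the Ttr-poor ones. Without WTEE sample 10 it was not called (log2 fold change 0.61, edgeR adjusted p = 0.20), nor were Slc6a13, a GABA carrier of leptomeninges, and Aldh1a2, which makes retinoic acid there. Of the collagen genes, Col3a1 also lost its call without WTEE sample 10 (log2 fold change 0.68, edgeR adjusted p = 0.0541), and Col1a1 kept its call in 20 and Col1a2 in 21 of 21 single-library omissions. Col1a2 had a log2 fold change of 1.14 ± 0.18, with 9.93 to 21.6 CPM in the Ttr-rich and 3.95 to 9.41 CPM in the Ttr-poor libraries, and Lum, a proteoglycan of fibroblasts, 0.83 ± 0.13. Dcn, another fibroblast proteoglycan, was not called (0.28 ± 0.12). In proportion to Ttr, the median CV of the 11 called fibroblast genes was 95.6%, and 70.4% without WTEE sample 10.

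Of 5 genes of MHC class II presentation, H2-Aa, H2-Ab1, H2-Eb1 and the invariant chain Cd74 were called higher, with log2 fold changes of 1.77 ± 0.30, 1.39 ± 0.30, 1.42 ± 0.24 and 1.35 ± 0.29. H2-Aa stood at 8.40 CPM in WTEE sample 10 and at 3.27 to 6.13 CPM in the other Ttr-rich libraries, against 0.717 to 2.75 CPM in the Ttr-poor ones. It was the only 1 of the 5 whose classes did not overlap. In proportion to Ttr, the median CV of the 4 called genes was 57.4%, and 36.8% without WTEE sample 10. Without WTEE sample 10, 4 of 5 were again called. The transactivator Ciita was not called (-0.42 ± 0.23). Of 7 markers of border macrophages, Clec12a was called (1.36 ± 0.25) and lay between 0.25 and 0.593 CPM in the Ttr-rich libraries, while Mrc1, Lyve1, Cd163, F13a1, Pf4 and Ms4a7 were not. Clec12a did not pass the filter on low counts in the Ttr-poor libraries alone.

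Genes of capillary cells differed less between the classes. Of 10 endothelial genes, 0 were called by edgeR, with a median log2 fold change of 0.19. All 10 were positive, from 0.02 to 0.49. Their summed level was 281 to 348 CPM in the Ttr-rich and 217 to 291 CPM in the Ttr-poor libraries. Of 6 tested pericyte and smooth muscle genes only Acta2 was called (0.74 ± 0.16). Of 5 blood genes, 0 were called. None of the lists for hippocampal neurons (12 tested), neocortex (8), myelin (7), astrocytes (6), microglia (6) and structural RNA (6) held a called gene, with medians between -0.36 and 0.17. Without WTEE sample 10, 1 of the 10 endothelial genes was called, and the median of the structural RNA list was -0.88.

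Markers of neighbouring regions gave a mixed picture. Of 8 genes of striatum and septum, Ppp1r1b, the dopamine-regulated phosphatase inhibitor DARPP-32, stood at 62.7, 94.5, 86.1, 93.8 and 66.3 CPM in WTSH sample 19, WTEE samples 10 and 13 and KDEE samples 12 and 14, against 36.1 to 45.5 CPM in the Ttr-poor libraries. Its log2 fold change was 1.01 ± 0.08 and the classes did not overlap, whereas the median of the list was -0.04. Gpx3, a secreted glutathione peroxidase, was the other called member (0.60 ± 0.13). Among 8 genes of thalamus and habenula, Tcf7l2 (0.57 ± 0.12), Lef1 (0.55 ± 0.15) and Calb2 (0.42 ± 0.12) were called, and without WTEE sample 10 only 1 of the 8 was. Of 5 tested pituitary genes, Lhb, a subunit of luteinizing hormone, was called (2.69 ± 0.36), with 20.4% of its exon length shared with Ruvbl2. Gh and Prl, which define the anterior pituitary, lay at 0 to 4.26 and 0 to 0.487 CPM in the Ttr-rich libraries and reached 127 and 17.1 CPM in KDSH sample 8, a Ttr-poor library.

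**Figure D4:**
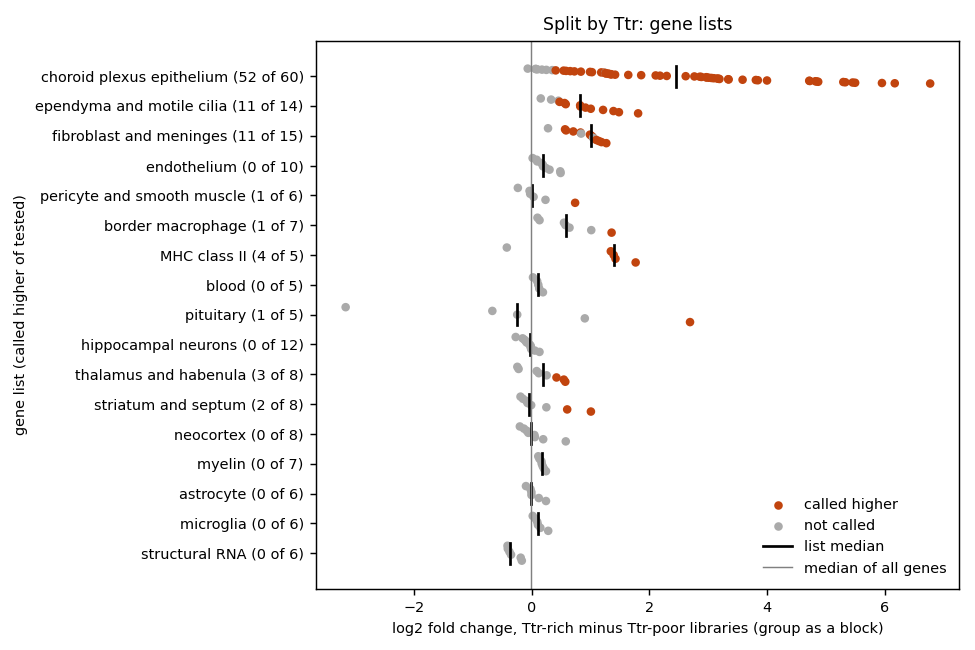
Log2 fold change between Ttr-rich and Ttr-poor libraries (horizontal axis, group as a block) of every tested gene in 17 lists (vertical axis), called genes in orange, others in grey, with the median of each list as a black bar and the median of all genes as a grey line. The choroid plexus epithelium list reaches 6.77 and has a median of 2.46, the ependyma, fibroblast and MHC class II lists have medians of 0.83, 1.01 and 1.39, and the lists of neurons and glia lie near 0.

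Of the 77 genes called lower in the Ttr-rich libraries, 33 were protein-coding, against 15522 of the 20554 genes tested. The median log2 fold change of the 77 was -0.61 and the lowest -2.43. The 8 with a log2 fold change under -1 all had a mean normalised count under 100 and are not named here. Counted over all tested genes rather than those called, every Ttr-rich library was below every Ttr-poor one in 15 (0.073%). Among those both called and non-overlapping were Gm37773 (-0.46 ± 0.10), Tgfbr3l (-0.43 ± 0.10), Gm9828 (-0.41 ± 0.08), Fancd2, a DNA repair protein (-0.40 ± 0.07), and A230083G16Rik (-0.39 ± 0.09). Fancd2 stood at 4.15 to 5.44 CPM in the Ttr-rich and 5.57 to 7.52 CPM in the Ttr-poor libraries. Without WTEE sample 10 the log2 fold changes of Tgfbr3l, Gm9828, Fancd2 and A230083G16Rik fell inside the fold threshold, and 33 genes were called lower in place of 77. Among called genes with a mean normalised count of at least 100, the most negative values were those of Gm26945 (-0.85 ± 0.26) and 1700109K24Rik (-0.78 ± 0.23), at 0.474 to 1.67 and 0.395 to 2.58 CPM in the Ttr-rich libraries, and both were no longer called without that library and kept their calls in 8 and 9 of 21 single-library omissions.

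Whether the same genes follow Ttr at its low levels was asked among the 16 Ttr-poor libraries alone, where Ttr spanned an 18.1-fold range from 200 to 4411 counts. This gradient was not used by the split. In a slope on log2 Ttr with the group as a block, edgeR called 0 of 20135 tested genes. At an unadjusted p under 0.05, 156 genes rose (0.775%) and 116 fell (0.576%). DESeq2 called 1 gene, Tmem72. Tmem72 ranked first of all genes by p, with a slope of 0.63 ± 0.09 on the log2 scale per doubling of Ttr (edgeR adjusted p = 0.0629), and was called when WTSH sample 5 (adjusted p = 0.0067) or WTSH sample 23 (adjusted p = 0.0497) was left out. Slc4a5 (0.59 ± 0.10, edgeR adjusted p = 0.186), Clic6 (0.44 ± 0.09, edgeR adjusted p = 0.889) and Folr1 (0.30 ± 0.06, edgeR adjusted p = 0.889) held ranks 2 to 4, all above the threshold. Off the list, Prr32 (0.93 ± 0.23) held rank 6, at 0 to 0.549 CPM. In these 16 libraries Tmem72 was counted 6 to 43 times and Slc4a5 4 to 51 times, so counting error adds to their spread.

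Of the 58 choroid plexus genes tested in that gradient, 14 had a positive slope and 0 a negative slope at an unadjusted p under 0.05. All 11 members whose log2 fold change between the classes was over 4 had a positive slope, with a median of 0.30, and 8 of them reached an unadjusted p under 0.05. Over the 58, 38 slopes were positive and the median was 0.02, against -5.53e-05 for all genes. The members with a high level in the Ttr-poor libraries were flatter. Enpp2 stood at 166 to 259 CPM there and had a slope of 0.06 ± 0.03. Slopes under 1 mean that these genes changed less than Ttr over the same libraries.

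The 3 libraries that the study left out were used by neither comparison. In 51 of the 52 choroid plexus genes called higher, all 3 lay below the lowest Ttr-rich library, and in 47 they lay at or below the highest Ttr-poor library. The same counts were not made over all genes tested, so these are a description and no result about the choroid plexus genes. Structural RNA of the left-out libraries reached 54994 to 228184 CPM, out of the same totals by which the other genes were divided. Its part in those counts was not tested.

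The split was also compared within each enriched group, which share no samples and held 2 Ttr-rich and 4 Ttr-poor libraries each. Within WTEE, 246 of 20452 genes were called higher and 0 lower, and within KDEE 415 of 19491 were called higher and 8 lower (edgeR). Both groups called 194 genes, 78.9% of those of WTEE and 46.7% of those of KDEE. Of the 60 choroid plexus genes, 42 were called in WTEE and 51 in KDEE, with median log2 fold changes of 2.62 and 2.66. Folr1 had log2 fold changes of 5.01 ± 0.18 and 4.73 ± 0.40, Enpp2 of 3.03 ± 0.20 and 3.22 ± 0.35, and Ppp1r1b of 1.23 ± 0.10 and 0.96 ± 0.14 in WTEE and KDEE. A test of the difference between the 2 groups, added after the data were seen, called 0 of 20611 genes by edgeR, with 1273 at an unadjusted p under 0.05 and a smallest adjusted p of 0.593. No other tool was run on it.

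The study compared the groups by housing and genotype, and the Ttr-rich libraries were not spread evenly over them. In KDEE minus KDSH, where 2 of 6 and 0 of 5 libraries were Ttr-rich, the choroid plexus list had a median log2 fold change of 1.66 over 21 libraries, and 58 of 60 members were positive. The median was 0.23 with the split as a further term and 0.15 in the Ttr-poor libraries alone. In KDSH minus WTSH it was -1.04, -0.01 and -0.02 in the same fits. In WTEE minus WTSH it was 0.26, 0.07 and 0.03, and in WTEE minus KDEE -0.22, -0.19 and -0.08. Single members moved further, with Slc4a5 at 5.42 ± 1.92 and Tmem72 at 5.65 ± 2.07 in KDEE minus KDSH over 21 libraries, and at 0.93 ± 0.52 and 0.46 ± 0.57 with the split as a term. Neither was called in any of the fits. These comparisons share groups and are not independent of one another.

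In all 4 comparisons, edgeR called 0 genes over 21 libraries, with the split as a term and in the Ttr-poor libraries alone. At an unadjusted p under 0.05 there were 2344, 1280 and 2469 genes in KDEE minus KDSH, 1322, 1515 and 993 in WTEE minus WTSH, 1007, 1206 and 893 in WTEE minus KDEE, and 201, 238 and 392 in KDSH minus WTSH. With DESeq2 the same fits called 12, 12 and 3 genes in KDEE minus KDSH, 2, 2 and 1 in WTEE minus WTSH, 113, 113 and 0 in WTEE minus KDEE, and 0, 6 and 0 in KDSH minus WTSH. Equal counts did not mean equal genes. With the split as a term, 1 of the 12 genes in KDEE minus KDSH, 1 of 2 in WTEE minus WTSH and 95 of 113 in WTEE minus KDEE were also called without it. In that fit 11, 1 and 14 of these calls, and all 6 in KDSH minus WTSH, had a fitted log2 fold change beyond 15 in either direction. Of the 12 genes called by DESeq2 in KDEE minus KDSH over 21 libraries, Cdh3 was the 1 on the choroid plexus list. Ttr in the Ttr-poor libraries stood at 75.1 ± 12.6 CPM in KDEE (SD, n = 4), 28.1 ± 28.3 in KDSH (n = 5), 36.4 ± 14.5 in WTEE (n = 4) and 35.5 ± 33.4 in WTSH (n = 3). The KDEE libraries under the threshold were thus at 64.1 CPM or above, while the other groups reached down to between 4.78 and 21.4 CPM.

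**Figure D5:**
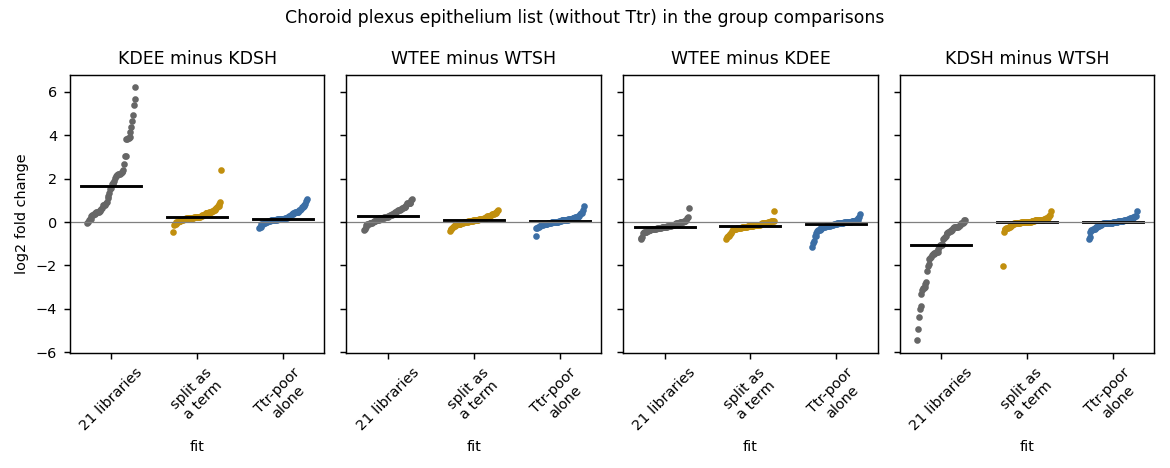
Log2 fold change (vertical axis) of each gene of the choroid plexus epithelium list without Ttr in the 4 group comparisons, over 21 libraries (grey), with the split as a term (ochre) and in the Ttr-poor libraries alone (blue), with medians as black bars. In KDEE minus KDSH the median goes from 1.66 to 0.23 and 0.15, and in KDSH minus WTSH from -1.04 to -0.01 and -0.02.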

How the data were processed

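Hippocampal poly(A) RNA of 24 Aged mice was sequenced in paired-end reads. Per the labels and methods, the authors checked the reads with FastQC 0.11.3, trimmed them with Skewer, aligned them to GRCm38 with STAR 2.5 and counted them with HTSeq 0.6.1p1, without regard to strand and for unique alignments only, and deposited raw counts per gene symbol for each library. Rows of unassigned reads were left out of library totals. CPM are counts divided by the gene total of the library, and TMM scaling was used in the fits only. Genes passing edgeR's default filter were tested in R 4.3.3 with edgeR 4.0.16 (quasi-likelihood test, default prior count, group as a block). P values were adjusted by the Benjamini-Hochberg method over all genes tested. A prior count of 2 was used only for the log2 CPM in the correlation with Ttr. The thresholds were an adjusted p under 0.05 and a log2 fold change beyond 0.38, those of the study, and DESeq2 1.42.0 was the alternative. The slope on Ttr had no fold threshold. The code was tested on simulated data. Replicates were separate mice, 1 per library. Counting error is small beside the spread between them at these depths, except for genes with few counts. PCR copies cannot be told apart, so counts are not molecules.

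Positions and exon overlaps come from GENCODE M21 (GRCm38), in which 47139 of 49568 gene symbols matched exactly 1 gene. Named genes are members of the lists, the 10 largest log2 fold changes in each direction among called non-overlapping genes (of which 5 were lower), the 15 largest positive and 10 largest negative among called genes off the lists with a mean normalised count of at least 100, and the 5 genes with the highest Pearson correlation of log2 CPM with Ttr over the 21 libraries, a description over 2 clusters of libraries (Slc4a5, Tmem72, Folr1, Clic6 and Sult1c2). Promoter windows were first planned for the last 5, which lacked an entry or overlapped annotated exons, and the genes shown were chosen afterwards. The classes, lists and rules were chosen with earlier results of these data known. The values of 1 gene of the choroid plexus list are not reported here, and it is counted in the totals.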

Additional observations from a re-analysis of the deposited data

Results flagged for a closer look

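Of 20 measures over the 5 Ttr-rich libraries, 3 had a library far from the others, where chance gives about 1 in 20. The summed level of the pituitary list was 15.2 CPM in WTEE sample 13, against 3.0 to 4.90 CPM in the other Ttr-rich libraries. There Pomc stood at 8.62 CPM and Gh at 4.26 CPM. The summed level of structural RNAs was 13776 CPM in WTEE sample 10, against 1205 to 3528 CPM. The median log2 level of long minus short genes was -0.79 in WTEE sample 10, against -0.10 to 0.03 in the other Ttr-rich libraries. The part of these values in the results of the split was not tested beyond the fits without each library.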

How the results depend on the processing

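The count of 999 genes called higher stayed within 1.5 times under RLE size factors, DESeq2 (1033, of which 966 shared), other filters, no block, all 24 libraries, a robust fit and every fit without 1 library (765 without KDEE sample 12 to 1156 without WTEE sample 13). Within WTEE it was 246 and within KDEE 415, with fewer samples. With log2 Ttr as a continuous term it was 87, and the choroid plexus list had 27 called and a median of 0.32, a slope per doubling with the same threshold of 0.38. Without that threshold, an alternative chosen after the data were seen, 1259 were called higher, 140 lower and 51 of the list higher. The 77 genes called lower were less stable, with 157 by DESeq2, 281 without a fold threshold, 285 without the block, 0 with the continuous term, 0 within WTEE, 8 within KDEE, and 33 (without WTEE sample 10) to 181 (without KDEE sample 15) without 1 library. Counts beyond 1.5 times were also given without WTSH sample 19 (120), WTEE samples 13 (178), 17 (48) and 21 (44), and KDEE samples 12 (40) and 20 (42). The choroid plexus list kept 50 to 53 calls and a median of 2.22 to 2.60 without 1 library, and its median was 1.86 where 10 counts were required in every library.

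The slope among Ttr-poor libraries gave 5 calls without the block (Slc4a5, Tmem72, Folr1, Clic6 and, falling, Pomc). It gave 1 by DESeq2, and 0 to 1 without 1 library. Pomc was counted 4405 times in KDSH sample 8, where Ttr stood at 6.49 CPM, and 35 to 120 times in the other Ttr-poor libraries. The part of that library in the Pomc call was not tested. In the group comparisons DESeq2 called 12, 2 and 113 genes in KDEE minus KDSH, WTEE minus WTSH and WTEE minus KDEE, 12, 2, 113 and, in KDSH minus WTSH, 6 with the split as a term (of which 1, 1, 95 and 0 were shared with the fit without it, and 11, 1, 14 and 6 had fitted log2 fold changes beyond 15), and 3 and 1 in the Ttr-poor libraries alone for the first pair. Leaving out 1 library gave 0 edgeR calls, except 1 in WTEE minus WTSH without WTEE sample 13 (range 0 to 1). The cause was not tested. No paired analysis was possible because each mouse has a number of its own and the groups share none. Depth limits genes under about 1 CPM, and 5 Ttr-rich libraries limit every difference.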
